A study of Mus musculus with 2 samples.

Results

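Histone genes of the clustered, replication-dependent type were examined in leukaemia-initiating cells of mouse acute myeloid leukaemia. They were taken as every gene named on the array with the prefix Hist1h, Hist2h, Hist3h or Hist4h, which gave 45 probes for 38 of the 27376 genes named there. By class these were 6 H1, 12 H2A, 11 H2B, 3 H3 and 6 H4 genes, and by cluster 28 Hist1, 6 Hist2, 3 Hist3 and 1 Hist4 genes. Where a gene had several probes, which was the case for 7 genes, its value came from the probe with the highest mean signal. The genes were picked by name only, while the choice among several probes of a gene used their mean signal over both arrays.

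Both groups were MLL-AF9 leukaemias carrying a YFP marker, sorted from the bone marrow of female mice for YFP, Mac-1 and c-Kit. One group was Jam3-null and the other wild type (WT) for Jam3, the gene of junctional adhesion molecule 3. Each group was 1 one-colour array, labelled as cells of 3 mice. The age of the mice, the allele behind the Jam3-null state and the way RNA of the mice was combined are not given in the sources used here. With 1 array per genotype, differences have no replicate check and no test across samples was made. The error given with each difference is the SD from the scanner software's error model, which covers the measurement of the spots and not the spread between mice.

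Replication-dependent histone genes are transcribed mainly in S phase, when new DNA has to be packed into nucleosomes. H2A, H2B, H3 and H4 form the nucleosome core, and H1 binds the linker DNA between nucleosomes. Their mRNAs have no introns and usually end in a conserved stem-loop, bound by the protein SLBP, in place of a poly(A) tail. Several of the genes can also give polyadenylated transcripts, a form known from differentiated cells. The labelling kit named in the protocols primes on poly(A), so the array reads polyadenylated transcripts best. How much of each histone signal came from stem-loop and how much from polyadenylated mRNA was not tested.

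Many of the copies code for the same or nearly the same protein, and their probes overlap in sequence. Of the 38 genes, 14 had a probe that listed at least 2 RefSeq genes or shared a run of at least 30 identical bases with the probe of another histone gene. A probe's accession list held at most 4 entries, and the 45 probes together listed 54 RefSeq genes. RefSeq (GRCm38.p6) has 70 genes with such a Hist name, of which 11 were listed by none of these probes. Values of the 14 genes therefore belong to a group of copies and not to 1 gene. Genes outside the 14 can share targets too. Hist1h2ao shared a run of 28 bases with Hist1h2af, whose probe also lists H2ac23, the current symbol of Hist1h2ao. Hist2h4 shared a run of 29 bases with Hist1h4d and with Hist1h4f. Both fell just under the limit and are treated below as not shared.

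The 3 H2B probes below are shown because genes in different clusters were read through almost the same stretch. Capitals mark bases that differ from the Hist1h2bk probe or lie outside it, and all sequences are 5′ to 3′.

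Hist1h2bk: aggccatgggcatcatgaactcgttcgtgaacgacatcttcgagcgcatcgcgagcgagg

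Hist1h2bm: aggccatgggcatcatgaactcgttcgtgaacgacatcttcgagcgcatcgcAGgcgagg

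Hist3h2bb-ps: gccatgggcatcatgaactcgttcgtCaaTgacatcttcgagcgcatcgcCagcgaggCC

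On mm9 these probes lie at chr13:22127928-22127987, plus strand, at chr13:21814139-21814198, plus strand, and at chr11:58767697-58767756, minus strand. The Hist1h2bm probe differed from the Hist1h2bk probe at 2 of 60 bases. The Hist3h2bb-ps probe, on a gene labelled as a pseudogene, differed from it at 3 of the 58 bases they share.

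The next pair shows the same for H2A and the last pair for H4. Capitals mark bases identical in the other probe of the pair. The H2A probes agreed at 47 of 60 bases, and the H4 probes were offset and shared 50 bases without a mismatch.

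Hist1h2aa: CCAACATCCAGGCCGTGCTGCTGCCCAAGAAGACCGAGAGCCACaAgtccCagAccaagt

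Hist1h2af: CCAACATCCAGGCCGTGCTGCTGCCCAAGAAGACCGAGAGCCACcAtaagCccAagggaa

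Hist1h4d: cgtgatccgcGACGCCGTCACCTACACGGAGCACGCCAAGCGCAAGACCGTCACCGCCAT

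Hist1h4f: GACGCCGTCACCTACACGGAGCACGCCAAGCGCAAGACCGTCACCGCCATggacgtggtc

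These lie on mm9 at chr13:24026659-24026718 (plus strand), chr13:23626108-23626167 (plus strand), chr13:23673665-23673724 (plus strand) and chr13:23643249-23643308 (minus strand). No gene annotation of that build was used here, so the exon or UTR that a probe covers is not given.

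Well above background were 55.0% of the 43379 non-control spots for Jam3-null and 61.8% for WT, with median processed signals of 49.3 and 51.6. The 2 probes of Jam3 gave 28.1 and 5.40 on the Jam3-null array, against 5.09 and 3.23 for WT, none well above background, so they do not check the genotype. The sort markers were present on both arrays: Kit gave 1237 on the Jam3-null and 1244 on the WT array, and Itgam, which codes for a chain of Mac-1, had 3703 and 302. All 15 measured markers of maturing neutrophils, of 16 listed, were higher by at least 2-fold on the Jam3-null array, against 10.3% of measured genes. Their median log2 difference was 4.66, and their summed processed signal was 1039050 against 178096. All 5 measured markers of mast cells, basophils and eosinophils, of 8 listed, were at least 2-fold lower there, against 8.63% of measured genes. They summed to 5576 against 31231, and the whole list to 5642 against 31336. The erythroid list summed to 3189 against 1616, with Ermap at background on both arrays. The B cell list summed to 7958 against 13458, mostly from Cd79b (7761 and 11223). Of its other genes Vpreb1 gave 115 and 2069, Ms4a1, Ebf1 and Igll1 were above background for WT only, and Pax5 and Cd79a on neither array. The 4 measured genes of the T and NK cell list, of 8, were all below 0 in the log2 difference and summed to 185 against 276, while the whole list, with Cd3d and Klrb1c above background for Jam3-null only, summed to 342 against 313. The megakaryocyte list summed to 1013 against 489, with Ppbp at background on both. Neutrophil precursors stop dividing as they mature. In bulk RNA fewer cells of a type, or fewer cells in S phase, and less RNA per cell cannot be told apart. The part of these markers in the histone values below was not tested.

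Most histone genes differed little between the arrays. Of the 38 genes, 35 were well above background on both arrays. A difference here is the log2 processed signal, after subtraction of each array's 75th percentile, on the Jam3-null array minus that on the WT array, and a call is a difference of at least 2-fold. On this scale 2 of the 35 histone genes were higher on the Jam3-null array by at least 2-fold (Hist1h2bq and Hist1h1c), where 10.3% of all 14351 measured genes were, and 1 was lower by as much (Hist3h2ba), where 8.63% of all genes were. In either direction that is 3 of 35, where 18.9% of all genes were past 2-fold. The median difference was -0.09 over the histone genes and -0.07 over all measured genes.

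The differences lay close together. Of the 35 genes, 28 fell between -0.5 and 0.5, a range that held 54.6% of all measured genes. Their error-model SDs ran from 0.20 to 0.28, and 10 genes differed by more than 2 such SDs, 5 in each direction, where 51.0% of all measured genes did. Differences were more spread at dim probes. The 22 histone genes with a mean processed signal above 10000 ran from -0.55 to 0.15, none of them 2-fold apart, against 12.8% of the 1700 measured genes above that signal. The median of these 22 was -0.10, against -0.23 for the 1700. The 13 dimmer histone genes ran from -1.19 to 1.83, and 23.1% of them were 2-fold apart, against 19.8% of the 12651 dimmer genes. Their interquartile range was 0.82, against 0.90 for those genes, and their median 0.23, against -0.05. The signal limit of 10000 was set after the values had been seen.

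**Figure D1:**
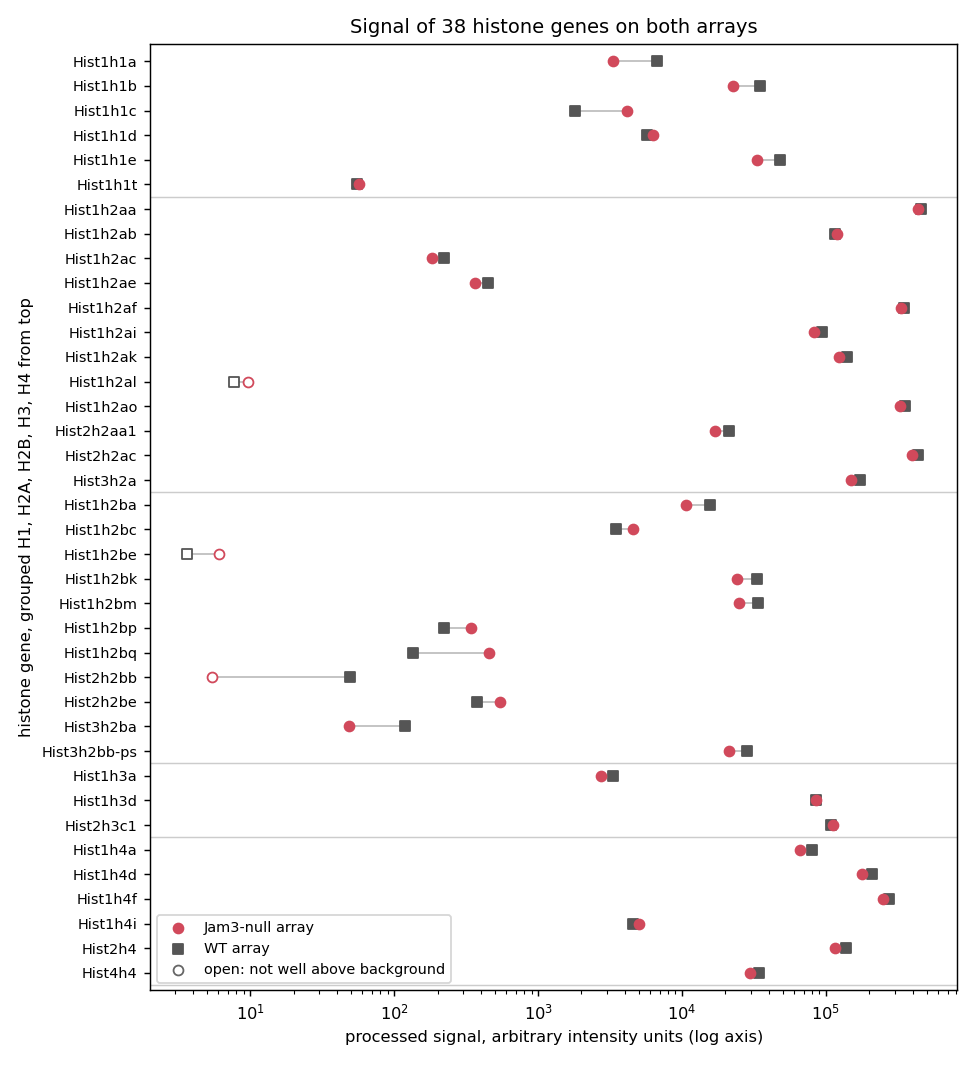
Processed signal of the 38 histone genes on the Jam3-null array (red circles) and the WT array (grey squares), on a log axis, grouped from top to bottom as H1, H2A, H2B, H3 and H4. Open symbols were not well above background on that array; the circle and the square of a gene lie close together for all but a few genes, among them Hist1h2bq with 453 against 136.

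The sign of a small difference depended on the scaling. Under 7 ways to scale the arrays, 11 of the 35 genes were higher on the Jam3-null array each time, 12 lower each time, and 12 changed sign. Those 12 were 7 of the 11 measured H2A genes and 5 of the 6 H4 genes. The H1, H2B and H3 genes kept their signs in all 7. The median of the histone genes was -0.17 to 0.21 over these scalings and was positive with cyclic loess, which also moved the median of all genes by 0.13, to 0.06.

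All 6 linker histone H1 genes were measured, and they lay on both sides of 0. Hist1h1c gave 4128 on the Jam3-null and 1811 on the WT array, which was 2.44-fold higher on the former, with a log2 difference of 1.29 and an error-model SD of 0.20. Hist1h1a had 3307 and 6727, a difference of -0.93, or 1.90-fold lower on the Jam3-null array. Hist1h1b, with 22463 and 35091, differed by -0.55. Hist1h1e, with 33060 and 47757, differed by -0.43. These last 2 and Hist1h1a were lower on the Jam3-null array, and Hist1h1c stood alone at the other end. Hist1h1d gave 6250 and 5705, a difference of 0.23, near its error of 0.20. Hist1h1t, a linker histone known from the testis, gave 57.0 and 55.1, a difference of 0.15 with an SD of 0.26. The median of the class was -0.14, and 0.066 with cyclic loess. No H1 probe listed a second gene, so these values belong to single genes as far as the accession lists go.

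Hist1h1c codes for one of the somatic linker histones and is among the histone genes with known polyadenylated transcripts. The probe lies on mm9 at chr13:23832018-23832077, plus strand. The first 30 of its 60 bases are given because they show an A- and T-rich stretch unlike the shared probes above.

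Hist1h1c: tacacttgctttgccttattttgatcagca

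Hist1h1d had a second probe, at chr13:23649203-23649262 on mm9, plus strand, that gave 148 on the Jam3-null and 32.2 on the WT array, a difference of 2.29 with an SD of 0.28. It lies 1751 bases from the brighter probe on mm9, while the RefSeq model of the gene spans 776 bases on GRCm38.p6. The 2 probes differed from each other by 2.06 with an SD of 0.34. Under normexp background correction the second probe's difference was 1.10. The first 30 of its bases follow, since they carry the largest difference of any measured histone probe.

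Hist1h1d, second probe: tgtgtaatcagatgtttgtagaatactctg

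The promoters of Hist1h1c and Hist1h1a are shown because these H1 genes lay furthest apart. Both are from RefSeq (GRCm38.p6), plus strand, and hold the 250 bases before the start. Capitals mark the CCAAT box, the TATA box (searched as TATAAA) and a word of the H1 box, known from H1 promoters, which was searched as AAACACA. Only these exact words are marked, so near forms, such as tatatata in Hist1h1c and aaacacg in Hist1h1a, stay in small letters.

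Hist1h1c, chr13:23738557-23738806: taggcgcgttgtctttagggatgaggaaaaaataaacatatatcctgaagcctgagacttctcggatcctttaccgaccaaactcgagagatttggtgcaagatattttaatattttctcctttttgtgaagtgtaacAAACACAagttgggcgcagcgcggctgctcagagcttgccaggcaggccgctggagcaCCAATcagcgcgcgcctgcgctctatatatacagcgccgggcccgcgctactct

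Hist1h1a, chr13:23763418-23763667: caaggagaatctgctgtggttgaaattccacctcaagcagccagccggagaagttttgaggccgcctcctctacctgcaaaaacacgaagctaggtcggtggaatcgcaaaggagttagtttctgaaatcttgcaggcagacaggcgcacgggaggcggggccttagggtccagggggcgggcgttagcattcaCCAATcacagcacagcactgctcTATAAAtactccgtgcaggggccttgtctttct

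In Hist1h1c, CCAAT began 54 bases and AAACACA 112 bases before the start. In Hist1h1a, CCAAT began 56 bases and TATAAA 33 bases before it, and AAACACA was not in the window. RefSeq promoters were found for 32 of the 38 genes and searched on both strands over the same 250 bases, beside those of 27025 genes. CCAAT was in 28 of the 32 and in 37.5% of all genes. TATAAA was in 17 and in 14.3%. AAACACA was in 9, among them 5 of the 6 H1 genes, and in 7.20%. TTTGCAT, from the octamer that the factor Oct-1 binds, was in 11, namely 6 of 11 H2A and 5 of 8 H2B promoters, and in 4.65%. GGTCCG, from the H4 site II, was in 4, all among the 5 H4 promoters, and in 7.69%. TTGGCGC, an E2F word, was in 0 of the 32 and in 2.31% of all genes. Overlap of one word with another was not removed.

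At this scaling, and at its brightest probe, no H2A gene differed by more than 0.22 between the arrays. With cyclic loess the highest was Hist1h2ab at 0.42, and with spike-in scaling the lowest was Hist2h2aa1 at -0.31. Of 12 genes, 11 were measured, and their differences ran from -0.22 to 0.13 with a median of -0.08, which became 0.21 with cyclic loess. Hist1h2aa, a gene otherwise known from the testis, gave 433792 on the Jam3-null and 456013 on the WT array, a difference of 0.02. Its probe is the one shown above with a run of bases in common with Hist1h2af, so the value cannot be assigned to Hist1h2aa alone. Hist2h2ac gave 395007 and 438523, a difference of -0.05, and its second probe gave 359841 and 367895, a difference of 0.06. Hist1h2af gave 331112 and 348808, a difference of 0.02, and its second probe gave 214956 and 248268, a difference of -0.11. In each of these the arrays differed by less than 1 error-model SD.

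Hist3h2a gave 150073 and 171390, a difference of -0.10. Its second probe gave 845 and 1347, a difference of -0.58 with an SD of 0.20. The probes lie 567 bases apart on mm9, while the RefSeq model spans 508 bases on GRCm38.p6. The 2 values differed by 0.48 with an SD of 0.29. Hist1h2ac, which codes for an H2A with known polyadenylated transcripts, gave 182 and 223, a difference of -0.20 with an SD of 0.21. Hist1h2ab (118737 and 115987), Hist1h2ao (329573 and 352212), Hist1h2ai (82831 and 93791), Hist1h2ak (122744 and 139290), Hist1h2ae (366 and 447) and Hist2h2aa1 (16916 and 21073) made up the rest of the class. Hist1h2al, with 9.67 and 7.68, stayed near background on both arrays.

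The H2B genes ran from -1.19 to 1.83, the full range of all the histone genes. Of 11 genes, 9 were measured, with a median of -0.33, and 1 passed 2-fold in each direction. Over the 7 scalings the median was -0.42 to -0.10. Without the members counted as having a shared probe target it was 0.072. Hist3h2bb-ps, whose overlap with Hist1h2bk is broken by mismatches, is not among those, and without it as well the median was 0.48.

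Hist1h2bq gave 453 on the Jam3-null and 136 on the WT array, which was 3.56-fold higher on the former, with a difference of 1.83 and an SD of 0.21. Its probe, at chr13:21929214-21929273 on mm9, plus strand, also listed a second RefSeq gene, H4bc24, known before as Hist1h2br, so the value is of the pair. Its first 30 bases are shown because it holds the largest difference of the 35 genes.

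Hist1h2bq: aaggctctgtactaaagaacatttttatga

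Hist3h2ba gave 48.5 and 119, which was 2.29-fold lower on the Jam3-null array, with a difference of -1.19 and an SD of 0.28. Under normexp background correction the difference was -0.61 and no longer 2-fold. The probe lies at chr11:58762948-58763007 on mm9, plus strand, and begins as follows.

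Hist3h2ba: aggggggtgttgtactggaccttgggatcc

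Hist1h2bm gave 24843 on the Jam3-null and 33792 on the WT array, and Hist1h2bk gave 24272 and 33015. Both differed by -0.35. The second probe of Hist1h2bk gave 12259 and 17006, a difference of -0.38. Hist3h2bb-ps, read through the third of the H2B probes shown above, gave 21131 and 28490, a difference of -0.33. Its probe lists the accession of Hist3h2ba, so the file ties both probes to 1 RefSeq gene, H2bu2. These near-identical probes thus gave nearly equal differences, and they are not independent readings of 3 genes. Hist1h2ba, an H2B known from the testis, gave 10590 and 15756, a difference of -0.48.

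Another 3 H2B genes were higher on the Jam3-null array by less than 2-fold. Hist1h2bc gave 4544 and 3488, a difference of 0.48. Hist2h2be gave 545 and 378, a difference of 0.62. Hist1h2bp gave 339 and 223, a difference of 0.70. The SD of each was 0.20 to 0.21. Hist2h2bb was well above background on the WT array only, with 5.43 for Jam3-null and 49.1 for WT, a level at least 1.78-fold lower with Jam3-null. Hist1h2be was well above background on neither array, with 6.02 and 3.62.

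Only 3 H3 genes were named on the array, and all were measured. Hist2h3c1 gave 112252 on the Jam3-null and 107840 on the WT array, a difference of 0.15. Hist1h3d gave 85531 and 84744, a difference of 0.11. Hist1h3a gave 2733 and 3332, a difference of -0.19. At this scaling none differed by more than its error of 0.20, while with cyclic loess Hist2h3c1 was at 0.44 and Hist1h3d at 0.38. The probes of Hist2h3c1 and Hist1h3d listed 3 and 4 RefSeq genes. The class median was 0.11, 0.38 with cyclic loess, and -0.19 once both were left out as shared targets, since Hist1h3a alone remained.

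The Hist1h3a probe, at chr13:23853756-23853815 on mm9, minus strand, ran through the stem-loop that ends these mRNAs. Its bases 36 to 60 are shown, with the words GGCTCTT and CAGAGCC from the stem-loop in capitals.

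Hist1h3a: accaaaGGCTCTTttCAGAGCCaca

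Searched on the probe strand, the word CAGAGCC was in 2 of the 45 histone probes, of Hist1h3a and Hist1h2ae, and in 0.437% of 41165 probes. GGCTCTT was in 3, of Hist1h3a, Hist1h1a and Hist1h2ab, and in 0.379%. The poly(A) signal AATAAA was in 2, of Hist1h2bp and Hist2h2bb, and in 4.78%. The 4 measured genes with a stem-loop word differed by -0.93 (Hist1h1a), -0.19 (Hist1h3a and Hist1h2ae) and 0.13 (Hist1h2ab).

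All 6 H4 genes were measured. They ran from -0.19 to 0.24 with a median of -0.12, which became 0.16 with cyclic loess. Hist1h4f gave 248343 on the Jam3-null and 276275 on the WT array, a difference of -0.06. Hist1h4d gave 179203 and 208940, a difference of -0.13, and its second probe gave 46736 and 57139, a difference of -0.19. Hist4h4 gave 29855 and 34484, a difference of -0.11, and its second probe, 1612 bases away on mm9, stayed near background on both arrays (6.03 and 3.13). Hist2h4 (115887 and 137629) and Hist1h4a (65794 and 80160) were slightly lower on the Jam3-null array, at -0.15 and -0.19. Hist1h4i (5061 and 4572), at 0.24, was the only H4 gene above 0 at this scaling.

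**Figure D2:**
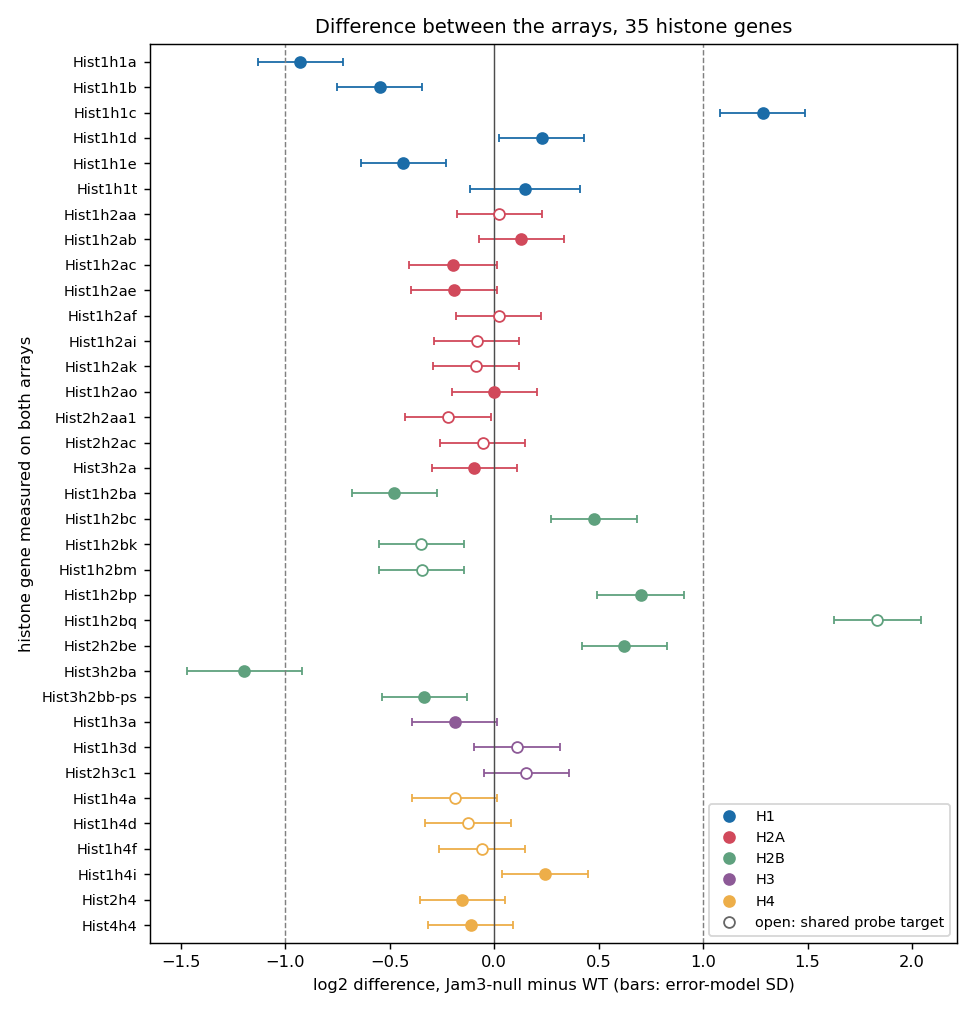
Log2 difference, Jam3-null minus WT, of the 35 histone genes measured on both arrays, coloured by class. Bars are the error-model SD, dashed lines mark 2-fold, and open circles are the 14 genes counted as having a shared probe target. H2A, H3 and H4 stay between -0.22 and 0.24, while H1 and H2B hold all 3 genes past 2-fold; the signs of 12 H2A and H4 genes change with the scaling.

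**Figure D3:**
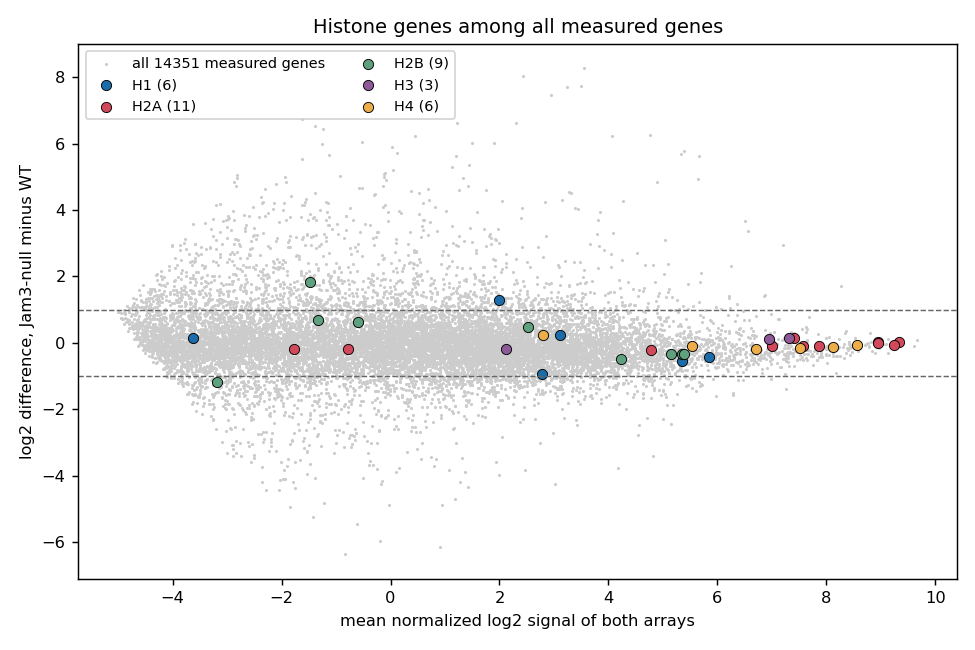
Log2 difference, Jam3-null minus WT, against the mean normalized log2 signal of both arrays for all 14351 measured genes (grey) and the histone genes by class (coloured). The dashed lines mark 2-fold; the 22 histone genes with a mean processed signal above 10000 lie between -0.55 and 0.15.

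Several of the genes at the higher end share a longer gene model. With RefSeq (GRCm38.p6) gene spans, grouped after the values had been seen, 6 of the 38 genes had a span over 1000 bases, from 2667 to 37455, and the other 32 ran from 383 to 794. Of the 6, 4 were measured (Hist1h2bc, Hist1h2bp, Hist1h2bq and Hist2h2be), all higher on the Jam3-null array, from 0.48 to 1.83, with a median of 0.66. Of the 31 measured genes with a shorter span, 10 were higher and 21 lower, with a median of -0.11. All 4 belong to H2B. Within that class the 5 measured genes with a shorter span were all lower, from -1.19 to -0.33. They include Hist1h2bk, Hist1h2bm and Hist3h2bb-ps, whose probes are near-identical. The Hist1h2bm probe also lists H2bc4, the current symbol of Hist1h2bc, so the long and short groups are not fully separate. Hist1h1c, with a span of 725, was also higher.

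The list of histone genes known for polyadenylated transcripts in differentiated cells held 6 names. Of these 4 were measured, with differences of 1.29 for Hist1h1c, 0.62 for Hist2h2be, 0.48 for Hist1h2bc and -0.20 for Hist1h2ac, and a median of 0.55. Over the 7 scalings the median was 0.46 to 0.65. Hist2h2be and Hist1h2bc are also among the genes with a long span described above, so the groups overlap. Hist1h2be was at background on both arrays, and Hist1h2bd was not found by that name. The neutrophil markers given above were higher on the same array, and their part in this was not tested.

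Base composition moved with the spread as well. The 26 measured histone probes with at least 50% G and C ran from -0.93 to 0.23 and none was 2-fold apart. Of the 15 with less, 26.7% were 2-fold apart, and they ran from -1.19 to 2.29. This split is nearly the split by signal given above. Of the 26, only Hist1h1a and the brighter Hist1h1d probe had a mean signal below 10000. Of the 15, only Hist1h1e and Hist1h2ab were above it, and neither was 2-fold apart. Base composition and signal thus cannot be told apart here. Over all probes the 2 shares were 18.1% and 17.6%. Across the 41 measured histone probes, G and C content and difference had a Pearson r of -0.38 and a Spearman rho of -0.15. Across all 21917 measured probes these were -0.03 and -0.04. These probes share 2 arrays and, in part, their targets, and no p is given. The median G and C content was 62.5% for probes with a shared target and 45.0% for the others. Among probes without a shared target, 0 of 11 with at least 50% and 3 of 14 with less were 2-fold apart. Of the probes with a shared target, 15 had at least 50%, none of them 2-fold apart, and 1 had less, that of Hist1h2bq.

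Position in the cluster was described for the 25 measured Hist1 genes with a position on mm9. The 2 genes past 2-fold had neighbours that were not past it. Hist1h2bq lay 26.5 kb from Hist1h2ao, at 0.00, and 198.7 kb from Hist1h2bk, at -0.35. Hist1h1c lay 43.7 kb from Hist1h1t, at 0.15, and 11.4 kb from Hist1h2ab, at 0.13. Hist1h1a, at -0.93, lay 2.1 kb from Hist1h3a, at -0.19. The medians of the clusters were -0.07 for Hist1, -0.05 for Hist2 and -0.33 for the 3 genes of Hist3, and the only Hist4 gene was at -0.11.

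**Figure D4:**
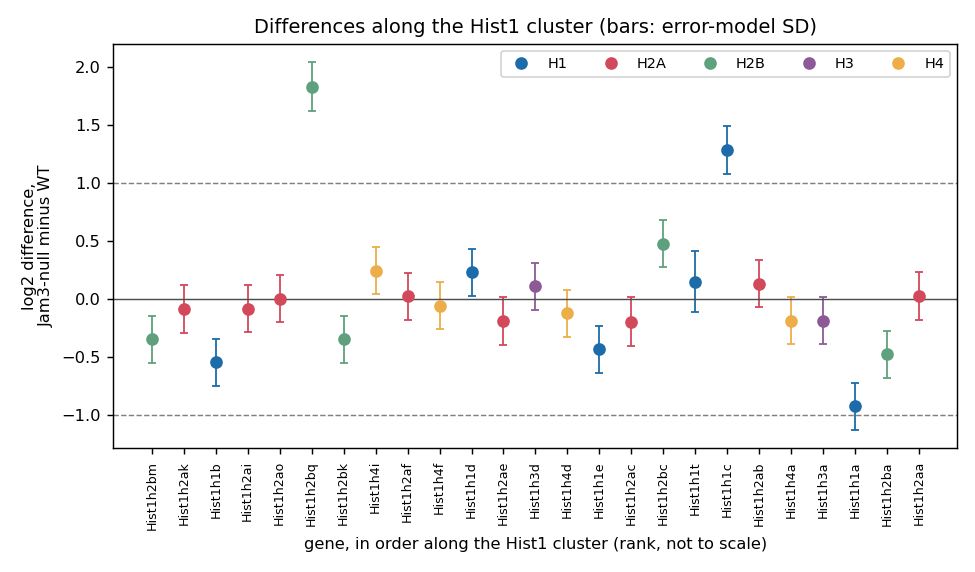
Log2 difference, Jam3-null minus WT, of 25 Hist1 genes in their order along the cluster, by rank and not to scale; bars are the error-model SD, colours the class, dashed lines 2-fold. Hist1h2bq (1.83) and Hist1h1c (1.29) stand above their neighbours in rank, which lie from -0.35 to 0.15, and the signs of H2A and H4 genes close to 0 change with the scaling.

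Genes that act on histones or beside them gave other values. Variant histones, many of which are made throughout the cell cycle from polyadenylated mRNAs, had 10 of 11 genes measured. Their median difference was 0.23, which was 0.14 with spike-in scaling and 0.45 with cyclic loess. Of the 10, 0 were past 2-fold higher, where 10.3% of all measured genes were, and 1 was past 2-fold lower, where 8.63% were. That gene, H2afy, codes for macroH2A1, a variant associated with silent chromatin. It gave 17863 on the Jam3-null and 41369 on the WT array, a difference of -1.12, and all 3 of its probes were lower. Its difference was -0.89 with the weakest of the scalings, which is under 2-fold.

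Of the list for histone mRNA transcription, processing and decay, 22 of 23 genes were measured, with a median of -0.13. None was 2-fold apart, against 18.9% of all measured genes. Slbp, whose product binds the stem-loop, gave 14776 and 13099, a difference of 0.27. Npat, a co-activator of histone gene transcription in S phase, gave 1299 and 1520, a difference of -0.13.

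Histone chaperones, which carry new histones to DNA, were lower on the Jam3-null array in 20 of 24 genes, 18 of them at all 7 scalings. Of all measured genes 55.2% were lower, and 60.5% of the 7175 with a signal above the median. Of the 24, 4 were past 2-fold lower (8.63% of all genes) and 0 past 2-fold higher (10.3%), with a median of -0.40, and -0.23 with cyclic loess. Nap1l1, which binds H2A and H2B, gave 2744 and 8233, a difference of -1.49. Ipo4, an importin that carries H3 and H4, gave 1390 and 3465, a difference of -1.22. Npm1, a nucleolar chaperone, gave 57516 and 131753, a difference of -1.10. The remaining one was Set, at -1.04. Npm1 and Set were under 2-fold at the weakest of the scalings, at -0.82 and -0.83.

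DNA replication genes were lower in 25 of 27, 24 of them at all 7 scalings. Beside this, 55.2% of all measured genes were lower, and 60.5% of those with a signal above the median. Of the 27, 4 were past 2-fold lower, where 8.63% of all genes were, and 0 past 2-fold higher, where 10.3% were. The median was -0.54, and -0.63 to -0.37 over the scalings. Ung, a uracil-DNA glycosylase, gave 1969 and 5636, a difference of -1.42. Gins2, of the replicative helicase, gave 1120 and 2823, a difference of -1.24. Pola1, a subunit of the polymerase that primes new strands, was at -1.04, and at -0.92, under 2-fold, at the weakest of the scalings.

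The mitosis list had a median of 0.11 over 18 genes, with none 2-fold apart, against 18.9% of all measured genes. Its largest differences were 0.64 for Mki67 (44058 and 30309), -0.48 for Bub1b (1786 and 2663) and 0.47 for Ccnb2 (34575 and 26635). Beside these lists the histone genes, at -0.09, lay between the replication and the mitosis medians. Relative to all measured genes the histone median was -0.01 and the replication median -0.46. With cyclic loess they were 0.15 and -0.43. Whether the lists differ from each other was not tested, since each rests on the same 2 arrays.

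**Figure D5:**
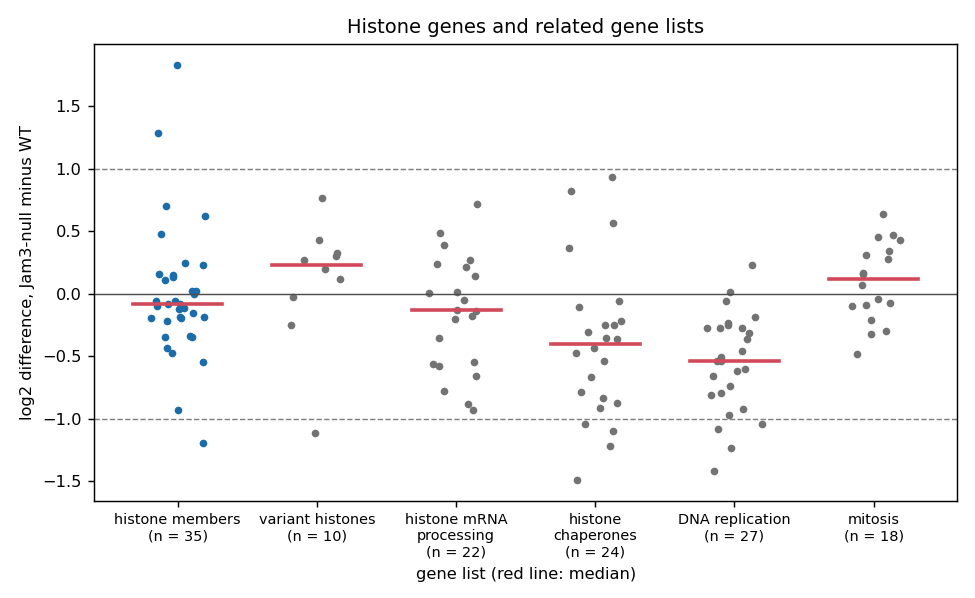
Log2 difference, Jam3-null minus WT, of the 35 measured histone genes (blue) and 5 related lists (grey), 1 point per gene, with the median as a red line and 2-fold as dashed lines. The medians run from -0.54 for DNA replication to 0.23 for variant histones; the histone median of -0.09 turns positive with cyclic loess.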

How the data were processed

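Agilent Feature Extraction, version 10.7.3.1 in the file headers and 10.7 in the submitters' processing notes, gave the spot values. The deposited processed intensity is background-subtracted and detrended within each array, and not normalized between arrays. The authors' value table holds log2 values that are alike in distribution on both arrays; how it was normalized was not stated in the labels or headers, and it served as an alternative. Flagged spots were left out (151 and 163; none of the histone probes), and no non-control spot was saturated. Each array's 75th percentile (667.8 and 713.9) was subtracted on the log2 scale, repeat spots were averaged per probe, and a gene took its probe with the highest mean signal. Measured genes are those well above background on both arrays. A gene seen on 1 array only has a bound: its bright value over the dim array's detection floor (the lowest signal well above background there) or over its own dim signal if that was higher. With 2 arrays their number limits the precision, and signal over background sets that of single probes.

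The histone genes and the lists were chosen with earlier results of these data known. Named in full were genes at least 2-fold apart, the 2 brightest of each class, those with several probes and the polyadenylated list; of other lists, variant and processing genes 2-fold apart, Slbp, Npat and the 3 largest differences of the chaperone, replication and mitosis lists. Of the replication list 1 gene under this rule is not reported here, and Pola1 and Set were named after their values were seen. Other histone genes that are given values were added so that each is accounted for. RefSeq names came by accession for 33 genes and by older symbol for 5. The gene-level step was tested on simulated data. R 4.3.3 with limma 3.58.1 and Python 3.11.15 were used.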

Additional observations from a re-analysis of the deposited data

How the results depend on the processing

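No paired analysis was possible because each genotype is 1 array, and no replicate could be left out. Each value was recomputed with cyclic loess or quantile normalization, median or spike-in scaling, normexp background correction (offset 50), the authors' value table, no or a stricter filter on dim probes, the mean of a gene's probes, and shared targets left out; counts also at 1.5-fold and 3-fold. No called difference changed sign. Leaving out the genes with a long RefSeq span, or Hist3h2bb-ps with the shared targets, was chosen after seeing the data.

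The count of genes at least 2-fold higher, 2, became 1 with the stricter filter, without shared targets (with or without Hist3h2bb-ps), without long spans and at 3-fold, and 4 at 1.5-fold. The count at least 2-fold lower, 1, became 0 with normexp, the stricter filter and at 3-fold, and 2 with spike-in scaling, without a filter and at 1.5-fold. Hist1h1a passed 2-fold at spike-in scaling. With cyclic loess the median became 0.21 for all histone genes, 0.066 for H1, 0.21 for H2A, -0.12 for H2B, 0.38 for H3, 0.16 for H4 and 0.45 for variant histones. The H2B median was -0.10 with quantile normalization, -0.13 in the authors' table, 0.072 without shared targets and 0.48 without Hist3h2bb-ps too. The H3 median was -0.19 in both of these. With the stricter filter the H1 median was -0.43 and that of the polyadenylated list 0.88. Of the other comparisons of counts and medians, 130 stayed within 1.5 times the count or 0.20 of the median. The causes were not tested, apart from the fewer genes that the stricter filter and the left-out targets keep. Of single genes, Hist1h1d averaged over its probes was 1.26. That is past 2-fold, so with the mean of a gene's probes Hist1h1d is added to the genes called higher.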
